A study of Mus musculus with 200 samples.

Results

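Bmp2 and Bmp4 encode bone morphogenetic proteins (BMPs), secreted signals of the TGF-beta family. Id1, Id2 and Id3 encode inhibitors of DNA binding, and Smad6 encodes an inhibitor inside the BMP signalling chain. The rows with these 6 symbols were read from all 7 TPM tables of the series, 6 of 25006 genes. TPM is a length-scaled share of a library's transcripts, so levels of different genes may be set side by side.

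BMP ligands bind serine and threonine kinase receptors, which phosphorylate Smad1, Smad5 and Smad9. These join Smad4 in the nucleus and activate target genes, among which the Id genes respond early and directly. Id proteins bind E proteins, partners of tissue-specific helix-loop-helix factors, and keep them off DNA. Smad6 is itself a BMP target and closes a feedback loop. Around implantation, Bmp4 is made by the extraembryonic ectoderm and the early epiblast, Bmp2 by the primitive and visceral endoderm, and Id2 is strongly expressed in trophectoderm.

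The study perturbed chromatin regulators and transcription factors in mouse embryos around implantation, with bivalent chromatin as its theme. Embryo libraries were small pools of cells from naturally mated embryos cultured in 3 dimensions, and 1 table held embryoid bodies. All 200 libraries, in 70 groups, were made with Smart-seq2, a full-length cDNA method. Knockouts were made by C-CRISPR, in which embryos are edited directly with several guides, so that an embryo is not a clonal line.

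A screen table held libraries labelled Epi (epiblast) at E5.0 in 10 batches: 40 knockouts, covering 39 targets, and 29 control libraries. GSK-J4 blocks Kdm6a and Kdm6b, enzymes that remove methyl groups from lysine 27 of histone H3. It was given to E3.5 blastocysts at 50 µM, with Epi profiled at E5.0 against wild type. Another GSK-J4 table covered E4.5, where the labels give no dose. A double knockout of Suz12 and Eed, core subunits of Polycomb repressive complex 2 (PRC2), was set against wild type at E5.0 in Epi and in primitive endoderm (PrE). Zbtb17, which encodes the zinc finger factor Miz1, was perturbed in embryos in a pair of tables. Embryos given the degrader dTAG at E5.0 were set against wild type, and a set titled as knockout, whose treatment field reads dTAG, was set against wild type at E4.5. The last table held Zbtb17 KO embryoid bodies (EBs, aggregates of differentiating embryonic stem cells), 1 line titled ZB11, against wild-type EBs on days 0 to 3. Embryo groups had 3 libraries, except 2 in the Ascl2 knockout and the batch 7 controls, and EB groups had 2. The labels give no strain or sex.

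The tables carry no read counts, so sequencing depth is unknown. In E5.0 screen controls outside batch 8 the epiblast markers Sox2 and Pou5f1 were at no more than 7.39 and 118 TPM. Elf5, a marker of extraembryonic ectoderm, was between 18.5 and 178 TPM there. Other epiblast markers were present, with 11 to 15 of 15 at 1 TPM or more, Tdgf1 at 26.6 to 364 TPM and a summed level of 3416 to 12340 TPM, against 5308 to 5991 TPM in batch 8. Since the markers are mixed, these libraries are called libraries labelled Epi. The epiblast sum does not mark epiblast alone. Among wild-type libraries of the Suz12 Eed set it was 11078.5 to 14516 TPM in PrE and 8035 to 10465 TPM in those labelled Epi. Tdgf1 was at 1.74 to 2.81 TPM in that PrE and 323 to 435 TPM in those labelled Epi. In batch 8, titled 6.0 but labelled E5.0, Pou5f1 was at 443 to 586 TPM and Elf5 at 0 to 0.241 TPM. The targeted gene was lower without overlap in 15 of 40 knockouts, lower in the mean with overlap in 13 and not lower in 11, and the Hdac13 pair had no row of its own. Marker sums moved in most knockouts. Without overlap with their controls, 24 of 40 had higher and 10 lower sums of primitive endoderm markers, 26 had higher and 11 lower sums of extraembryonic ectoderm markers, and 21 had higher and 5 lower sums of epiblast markers. The part of these in the screen results was not tested. Suz12 and Eed were each lower without overlap in both tissues of the double knockout. Zbtb17 RNA was lower in KO EBs on each of the 4 days, but not in libraries labelled dTAG (where the degrader acts on protein), at E4.5 or in the screen.

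Short stretches of promoter sequence are shown because they hold the letters that Smad complexes are known to bind, in the genes that background names as direct targets. RefSeq promoter windows on GRCm38.p6, 250 bases before to 50 bases after the start, were matched for Bmp4, Id2, Id3 and Smad6. Both strands were searched for the motif GGCGCC that BMP Smads are known to favour. The Smad box GTCTG was searched together with its reverse complement, which reads CAGAC, and so was the palindrome GTCTAGAC. The letters of the last contain neither of the others. The motif is in capitals, 5′ to 3′ on the strand of the gene.
Id3 first site: cctcggcgtCAGACcagcctaag
Id3 second site: cccttggcgGTCTGttttgaata
Id2 site: ggccccctgGGCGCCcagcgcaca
Smad6 site: cgccaaagtGTCTAGACtggcatatg
The Id3 sites lie at chr4:136143646-136143668 and chr4:136143745-136143767 on the plus strand, 167 and 68 bases before the RefSeq start and inside the first exon of a longer GENCODE transcript of Id3. The Id2 site lies at chr12:25096309-25096332 on the minus strand, 231 bases before the start, in an intron of a longer GENCODE transcript of Id2. The Smad6 site lies at chr9:64022047-64022072 on the minus strand, begins 4 bases before the start and runs across the edge of the first exon. None of the 3 motifs is in the Bmp4 window. Over 32851 promoter windows, 11.9% held GGCGCC, 49.6% held GTCTG or CAGAC and 0.213% held GTCTAGAC, so that the first pair are common letters. A match describes the sequence and says nothing of binding in these cells.

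On mm10 with GENCODE vM21 the genes lie at chr2:133552159-133562885 (Bmp2, plus strand), chr14:46383520-46390669 (Bmp4, minus), chr9:63953076-64022059 (Smad6, minus), chr2:152736251-152737410 (Id1, plus), chr12:25093799-25097140 (Id2, minus) and chr4:136143497-136145755 (Id3, plus). Id2 was at 1 TPM or more in all 200 libraries, Id3 in 198, Bmp4 in 191 and Id1 in 191. Smad6 was so in 121 libraries and Bmp2 in 62. The highest level in any library was 1539 TPM for Id2, 1236 for Id3, 311 for Id1, 285 for Bmp4, 11.1 for Smad6 and 8.82 for Bmp2. Of the 2 ligands Bmp4 thus had the higher peak and reached 1 TPM in more libraries, although wild-type PrE held more Bmp2 than Bmp4. The inhibitor Smad6 and Bmp2 were scarce in most libraries. In wild-type EBs on day 2 another ligand of the family, Gdf3, was higher, at 58.6 TPM on average against 3.98 TPM of Bmp4.

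Tests were made with limma on log2(TPM + 1) across all genes of a table, with Benjamini-Hochberg adjustment and a threshold of 0.05 for the adjusted p. A difference in log2 is on that scale, which understates changes of scarce genes. Shares of all genes that passed, given beside the members, include scarce genes, and shares among genes of like level were not computed. In bulk libraries fewer cells of a type and less RNA per cell cannot be told apart. Calls were also refitted without single replicates. In the screen and in EBs the replicate number was then dropped from all knockout or all control groups at once. The labels state biological replicates without naming embryos or litters, so p-values measure the spread between these libraries.

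The number of members that passed varied widely. In GSK-J4 at E5.0, 4 of the 5 tested members passed, where 28.3% of genes did. In the Suz12 Eed double knockout (DKO) 3 of 6 passed in libraries labelled Epi, where 7.8% of genes did, and 3 of 6 in PrE, where 22.9% did. With dTAG, 4 of 5 tested members passed, where 11.7% of genes did. At E4.5, GSK-J4 gave 0 of 4 tested members by limma (1 at an unadjusted p under 0.05), where 1.15% of genes passed. The E4.5 Zbtb17 table gave 0 of 2 tested members by limma (1 at an unadjusted p under 0.05), where 0.131% passed. Members not tested were below the filter, with Bmp2 among them in each of these tables except the DKO one.

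**Figure D1:**
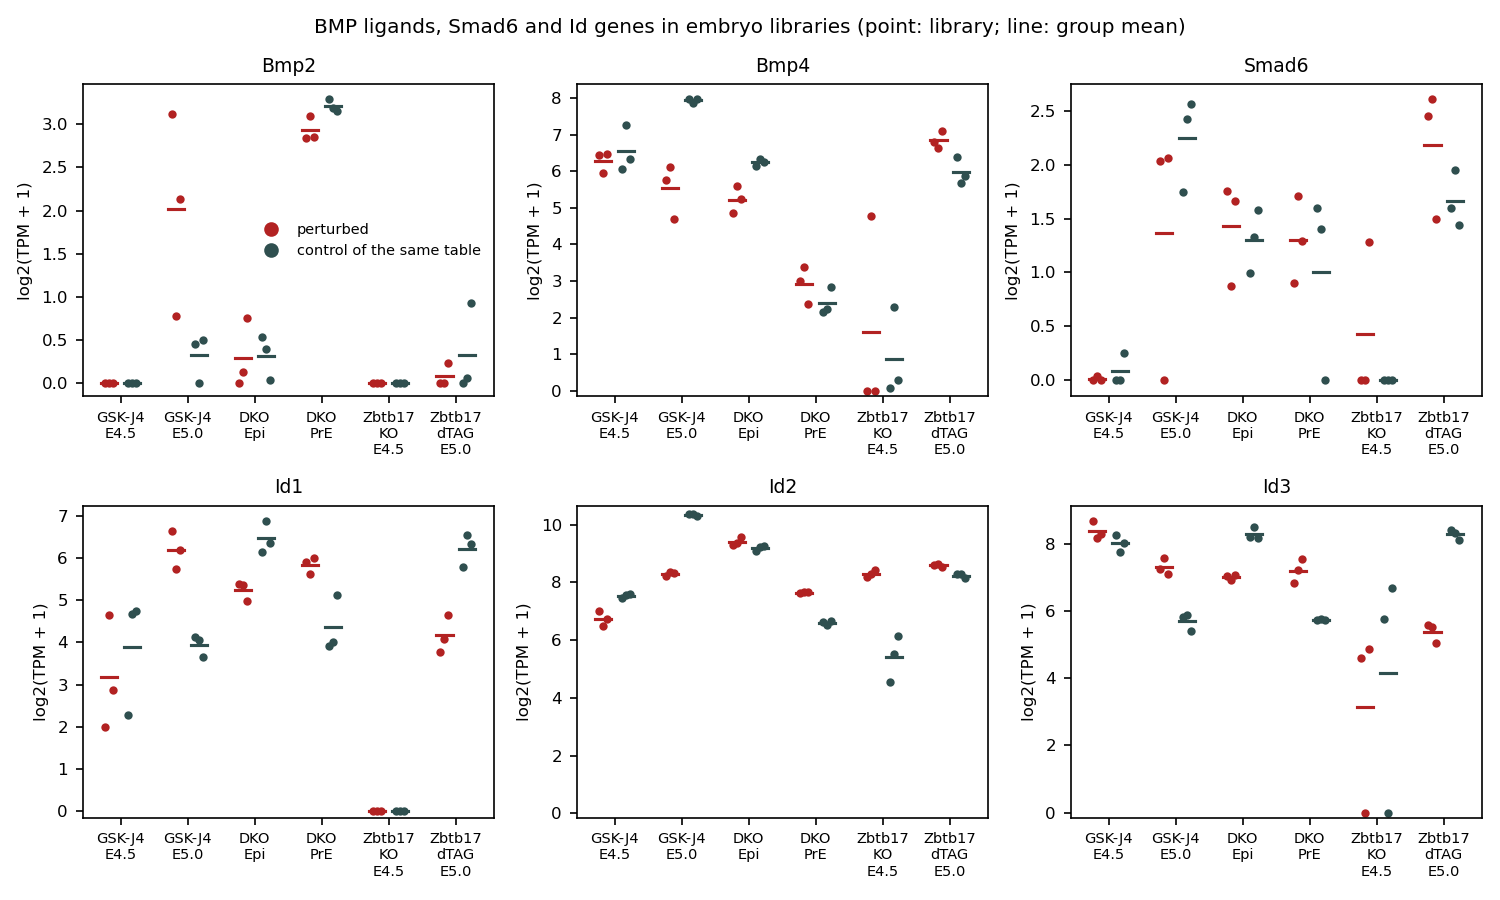
Level of each gene, as log2(TPM + 1), in perturbed libraries (red, left of each pair) and controls of the same table (dark, right) for the embryo tables outside the screen. Each point is a library and each line the mean of the plotted libraries; Bmp4 and Id2 are low and Id1 and Id3 high in GSK-J4 libraries at E5.0, while Id1 and Id3 are low in DKO libraries labelled Epi and in dTAG libraries.

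Bmp4 was 5.00-fold lower with GSK-J4 at E5.0. It was at 53.4, 68.4 and 25.1 TPM in GSK-J4 libraries, against 250.3, 233 and 250.01 TPM in wild type. The groups did not overlap (log2 difference -2.41, SE 0.33, limma adjusted p = 0.00149). Markers of PrE were far higher in the same GSK-J4 libraries: 21 of 22 tested rose, with a summed level of 9484 to 10227 TPM against 923 to 960 TPM, and Dab2 was at 486 to 571 against 5.46 to 8.24 TPM. The extraembryonic ectoderm (ExE) marker Elf5 was at 16.4 to 20.9 TPM in GSK-J4 libraries and 64.5 to 75.5 TPM in wild type. Their part in the Bmp4 difference was not tested.

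Bmp4 also fell in DKO libraries labelled Epi, to 27.8, 47.4 and 36.7 TPM, against 69.6, 79.2 and 75.5 TPM in wild type. The groups were apart (log2 difference -1.01, SE 0.29, limma adjusted p = 0.0452), but the call was lost under 9 of 19 alternative settings, with an adjusted p of up to 0.154. Those included leaving out any wild-type library labelled Epi or DKO replicate 1 or 3. In PrE, Bmp4 was at 6.99, 9.49 and 4.17 TPM in the DKO and 3.46, 3.67 and 6.18 TPM in wild type, and the groups overlapped (limma adjusted p = 0.405). ExE markers were higher in DKO libraries labelled Epi, 10 of 18 passing and none lower, with sums of 6669 to 7830 TPM against 1708 to 1758 TPM, and their part was not tested. With dTAG, Bmp4 moved the other way, to 109.5, 98.3 and 137 TPM against 82.1, 50.1 and 57.8 TPM in wild type. These groups did not overlap (log2 difference 0.87, SE 0.20, limma adjusted p = 0.0204), and the call was lost under 5 of 10 settings (adjusted p up to 0.094), among them without wild-type replicate 56 or 57 or dTAG replicate 3. Wild-type PrE held 15.3-fold less Bmp4 and 6.01-fold less Id2 than wild-type libraries labelled Epi, with log2 differences of -1.91 for Id1 and -2.56 for Id3, in a comparison where 52.7% of genes passed and 5 of 6 members did.

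In the screen, Bmp4 fell in 16 of 40 knockouts and rose in 0, where over all genes and knockouts 3.1% of tests passed as lower and 3.31% as higher. Knockouts of 1 batch share their controls, so these counts are not independent, and 6 of the 16 came from batch 2. Another was Aurkb of batch 1, whose 3 libraries were nearly identical and count as 1 sample, so that its calls, on Bmp4 and Id3, rest on the spread of the other groups. Suz12 knockout libraries of batch 2 held 2.00, 8.96 and 8.78 TPM of Bmp4, against 145, 138 and 122 TPM in controls. That was the largest Bmp4 difference of the screen (log2 difference -4.35, SE 0.36, limma adjusted p = 2.71e-19). Loss of Ascl2, a trophoblast transcription factor, gave 11.1 and 8.68 TPM against the same controls (log2 difference -3.65, limma adjusted p = 4.05e-12). Nelfb encodes a subunit of the factor that pauses RNA polymerase II. Its knockout libraries in batch 1 had 8.34, 10.49 and 6.48 TPM of Bmp4, against 77.9, 83.3 and 65.8 TPM in controls (log2 difference -3.04, limma adjusted p = 1.95e-11). PrE marker sums were 5010 to 5770 TPM in Nelfb libraries and 1199 to 1266 TPM in these controls, with Dab2 at 255 to 294 against 22.3 to 31.8 TPM, and their part was not tested. Ascl2 and Nelfb RNA were not lower in the libraries labelled as their knockouts.

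Other calls lay in batches 5, 7, 8, 9 and 10. Ezh2, the catalytic subunit of PRC2, was targeted in batch 5, and Bmp4 was at 26.7, 37.8 and 18.7 TPM in its knockout against 149.6, 79.7 and 69.1 TPM in controls. The groups were apart (log2 difference -1.78, limma adjusted p = 7.17e-05). PrE marker sums were 8142 to 8675 TPM in the Ezh2 knockout and 1083 to 1253 TPM in these controls, and their part was not tested. Mbd3, a subunit of the NuRD complex, gave 41.1, 37.4 and 37.2 TPM against 105, 135 and 99.9 TPM in batch 10 controls (log2 difference -1.52, limma adjusted p = 0.0102), a call lost without knockout replicate 2 or 3 or control replicate 2 (adjusted p up to 0.0988). The Bend3 call of batch 8 had overlapping groups, 5.21, 4.44 and 0.843 TPM in the knockout against 13.8, 3.59 and 9.28 TPM in controls, and was lost without control replicate 1 or 3 or knockout replicate 3. Zbtb17 knockout left no call on Bmp4 in batch 6, at 243, 135 and 148.1 TPM against 147, 173 and 168 TPM in controls (limma adjusted p = 1.00).

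**Figure D2:**
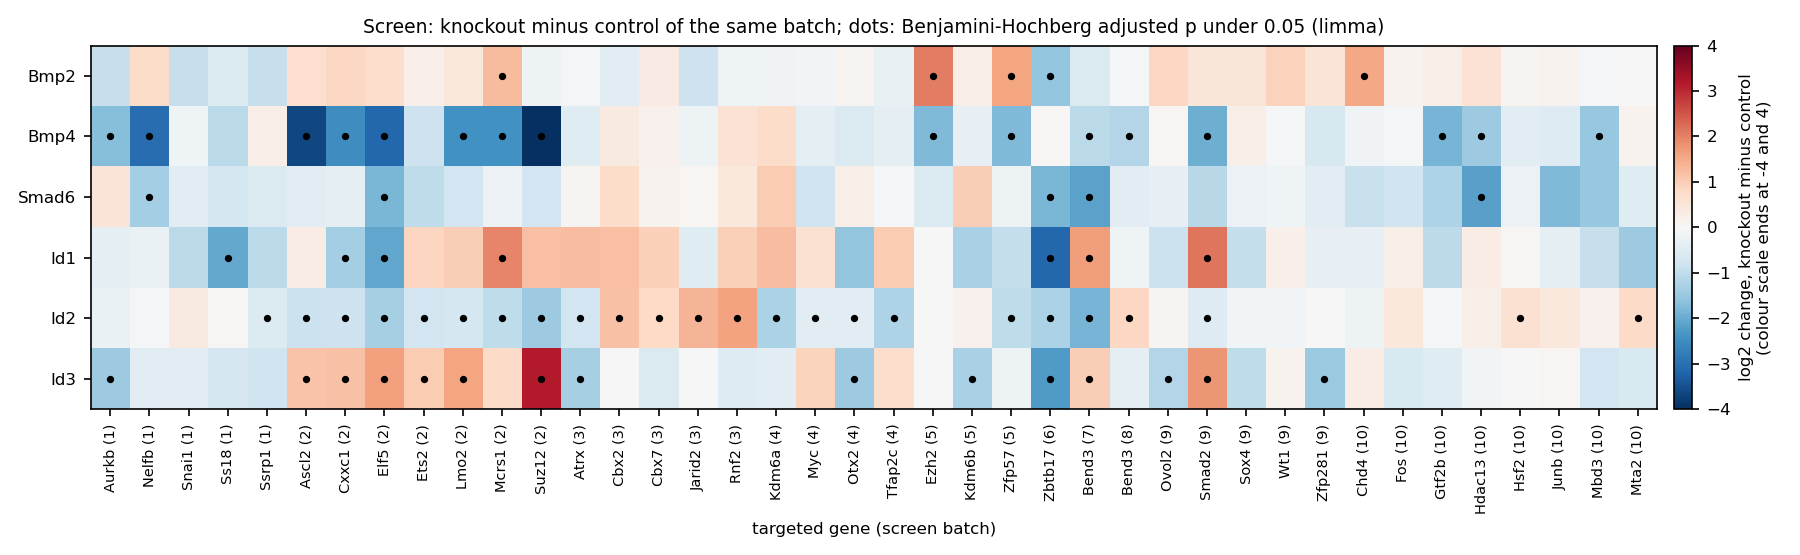
Log2 difference of each gene, knockout minus control of the same batch, for 40 knockouts ordered by batch; red is higher and blue lower in the knockout, colours end at -4 and 4, and dots mark a limma adjusted p under 0.05. Bmp4 has 16 blue dots and no red one, Id2 has blue dots in every knockout of batches 2 and 4, and Id3 has red dots in 6 of 7 knockouts of batch 2.

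Bmp2, the endodermal ligand, was a PrE gene in the control libraries. It was at 8.82, 8.11 and 7.9 TPM in wild-type PrE, against 0.443, 0.312 and 0.0249 TPM in wild-type libraries labelled Epi. PrE controls 1 and 2 differed so little that they were taken as 1 library, so the test compared 2 with 3 (log2 difference 2.88, limma adjusted p = 9.05e-06). In the DKO, PrE held 6.15, 7.57 and 6.24 TPM of Bmp2, below each wild-type library but with no call (limma adjusted p = 0.636). With GSK-J4 at E5.0, Bmp2 was at 7.69, 0.719 and 3.4 TPM against 0.373, 0 and 0.419 TPM in wild type, and was not tested, since too few libraries reached 1 TPM.

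Bmp2 rose in 4 knockouts of the screen and fell in 1, at low levels throughout. The Ezh2 knockout had 6.85, 5.08 and 0.659 TPM, against 0, 0 and 0.119 TPM in batch 5 controls (log2 difference 2.05, limma adjusted p = 8.67e-05). Zfp57, a zinc finger protein that guards imprints, gave 1.14, 2.67 and 2.75 TPM of Bmp2 against the same controls (log2 difference 1.57, limma adjusted p = 0.00515). PrE marker sums were higher in both, 8142 to 8675 TPM with Ezh2 and 3431 to 3646 TPM with Zfp57 knocked out against 1083 to 1253 TPM in controls, and their part was not tested. The Mcrs1 call of batch 2 rested on 3.87, 1.12 and 3.33 TPM against 0.0404, 0.685 and 0.808 TPM in controls, and was lost under 9 of 15 settings, among them without any of the controls or without knockout replicate 1 or 3. PrE marker sums were 3851 to 4142 TPM in Mcrs1 libraries and 1243 to 1302 TPM in these controls, and their part was not tested. The fall, in Zbtb17 libraries of batch 6, had overlapping groups, 0.0349, 3.17 and 0 TPM against 5.63, 2.18 and 4.4 TPM.

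Smad6, the inhibitory Smad, fell in 5 knockouts of the screen and rose in 0. It was listed at 0 in all 3 Elf5 knockout libraries, against 2.35, 2.93 and 2.45 TPM in batch 2 controls (limma adjusted p = 0.00333). Epiblast marker sums were 20399 to 21064 TPM in Elf5 libraries against 7532 to 7707 TPM, and PrE sums 2632 to 2896 against 1243 to 1302 TPM. Libraries of the Hdac1 Hdac3 double knockout held 0, 0 and 0.229 TPM, against 5.25, 5.69 and 1.67 TPM in batch 10 controls (log2 difference -2.17, limma adjusted p = 0.000962). ExE sums there were 9030 to 9873 TPM against 2483 to 3323 TPM, and PrE sums 1878 to 2214 against 775 to 1060 TPM. The part of the markers in both calls was not tested. Smad6 was not called in the Smad2 knockout, at 1.57, 1.13 and 1.61 TPM against 5.32, 3.7 and 3.91 TPM, although the groups were apart (limma adjusted p = 0.442). At these low levels a value of 0 may be a gene missed in amplification as well as one not expressed. In the embryo tables outside the screen Smad6 passed in no comparison of a perturbation with its control, and with GSK-J4 at E5.0 its groups overlapped, at 3.1, 0 and 3.19 TPM against 2.35, 4.38 and 4.92 TPM.

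Among the Id genes, Id2 had the most RNA in wild-type E5.0 libraries labelled Epi of the GSK-J4 and DKO tables. With GSK-J4 at E5.0 it fell to 296, 330.4 and 318 TPM, against 1304, 1302 and 1262 TPM in wild type. Replicates were close and the groups far apart, a 4.09-fold lower level (log2 difference -2.03, SE 0.07, limma adjusted p = 2.89e-06). At E4.5 Id2 was at 129, 88.6 and 104 TPM with GSK-J4 and 173, 187 and 193 TPM in wild type. These groups did not overlap either, but the difference did not pass (log2 difference -0.79, SE 0.23, limma adjusted p = 0.151). The stages came from separate tables, and the difference between them was not tested.

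In the DKO, Id2 passed in PrE and did not pass in libraries labelled Epi. In PrE Id2 rose to 197, 201 and 199.6 TPM, against 98.6, 89.8 and 99.2 TPM in wild type (log2 difference 1.03, SE 0.13, limma adjusted p = 0.000106). In libraries labelled Epi it was at 625, 659.9 and 752 TPM, against 541, 602 and 603 TPM in wild type (log2 difference 0.22, limma adjusted p = 0.283). The interaction, PrE effect minus Epi effect, was 0.81 (limma adjusted p = 0.00566), in a contrast where 20.6% of genes passed and 4 of 6 members did. ExE marker sums in PrE were 2291 to 2409 TPM in the DKO and 641 to 972 TPM in wild type, and their part was not tested.

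Id2 was the member called most often in the screen, higher in 7 knockouts and lower in 17. Directions differed by batch, as did control levels. In batch 2, whose controls held 1247, 1170.3 and 1287 TPM, Id2 fell in 7 of 7 knockouts. In batch 4, with 1488, 1405 and 1470.4 TPM in controls, it fell in 4 of 4. In batch 3, where controls held 286, 272 and 284 TPM, it rose in 4 of 5 knockouts and fell in 1.

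The 4 rises of batch 3 were knockouts of Polycomb genes. Rnf2, the ubiquitin ligase of Polycomb repressive complex 1, gave 881, 840.2 and 852 TPM (log2 difference 1.61, SE 0.13, limma adjusted p = 3.68e-19). Jarid2, a PRC2 cofactor, gave 765, 772 and 649.6 TPM (log2 difference 1.37, limma adjusted p = 4.9e-15). The chromodomain proteins Cbx2 and Cbx7 gave 597 to 662 and 482 to 514 TPM, all above the shared controls, although Cbx2 RNA was not lower in its knockout. Elf5 was higher beside them, at 74.5 to 80.4 TPM in Rnf2 and 74.2 to 87.7 TPM in Jarid2 libraries, against 18.5 to 22.0 TPM in controls. The summed ExE markers were lower in Rnf2 (5529 to 5811 TPM), Cbx2 (5152 to 5227) and Cbx7 (5556 to 5745) libraries than in controls (8942 to 9212), and overlapped with them in Jarid2 libraries (9030 to 9407). These controls also stood apart from those of other batches in their PrE sums, 3329 to 3569 TPM. Nanog was at 29.1 to 33.9 TPM in them, within the range of batch 8 controls (27.4 to 44.9 TPM). The part of the markers in the Id2 differences was not tested. The remodeller Atrx, whose RNA was not lower in its knockout, was the fall, at 160.3, 164 and 171 TPM (log2 difference -0.76, limma adjusted p = 1.01e-05).

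The Polycomb gene Suz12, in batch 2, went the other way for Id2. Its knockout held 446, 441 and 474 TPM against the 1170.3 to 1287 TPM of those controls, and the groups were apart (log2 difference -1.44, SE 0.13, limma adjusted p = 1.57e-17). Kdm6a, a target of GSK-J4, was knocked out in batch 4, where Id2 fell to 601, 562 and 657 TPM against 1488, 1405 and 1470.4 TPM in controls (log2 difference -1.26, limma adjusted p = 1.97e-13). The transcription factor Tfap2c gave 555, 655 and 636 TPM against the same controls (log2 difference -1.24, limma adjusted p = 1.52e-13). Myc and Otx2 knockouts of that batch also passed, at -0.41 and -0.47 in log2, but each was lost under 6 of 15 settings (adjusted p up to 0.533 and 0.139), and Myc RNA was not lower in its knockout. Bmp4, which fell with GSK-J4 at E5.0, was at 255, 285 and 207 TPM in the Kdm6a libraries. Batch 4 controls held 125, 173 and 149 TPM of Bmp4, apart but with no call. With Kdm6b, the other target of GSK-J4, knocked out in batch 5, Id2 was not called. It was at 1040, 889 and 992 TPM there, against 843, 847 and 869 TPM in controls.

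Bend3, a BEN domain transcriptional repressor, was knocked out in batches 7 and 8 with opposite results for Id2. In batch 8 it was at 71.9, 56.1 and 41.4 TPM against 23.2, 51.2 and 23.9 TPM in controls, and the groups overlapped (log2 difference 0.83, limma adjusted p = 1.54e-07). This call was lost in a fit of the compared groups alone (adjusted p = 0.137). In batch 7 Id2 fell to 405, 362 and 325 TPM, against 1151 and 1539 TPM in controls (log2 difference -1.87, limma adjusted p = 1.47e-20). The test of the difference, batch 8 minus batch 7, gave 2.70 (limma adjusted p = 7.99e-23), in a contrast where 20.6% of genes passed and 2 of 6 members did. Batch 7 libraries stand apart, with 24.1% to 36.6% of TPM in their top 10 genes, and Bend3 RNA was not lower in the knockout of that batch.

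**Figure D3:**
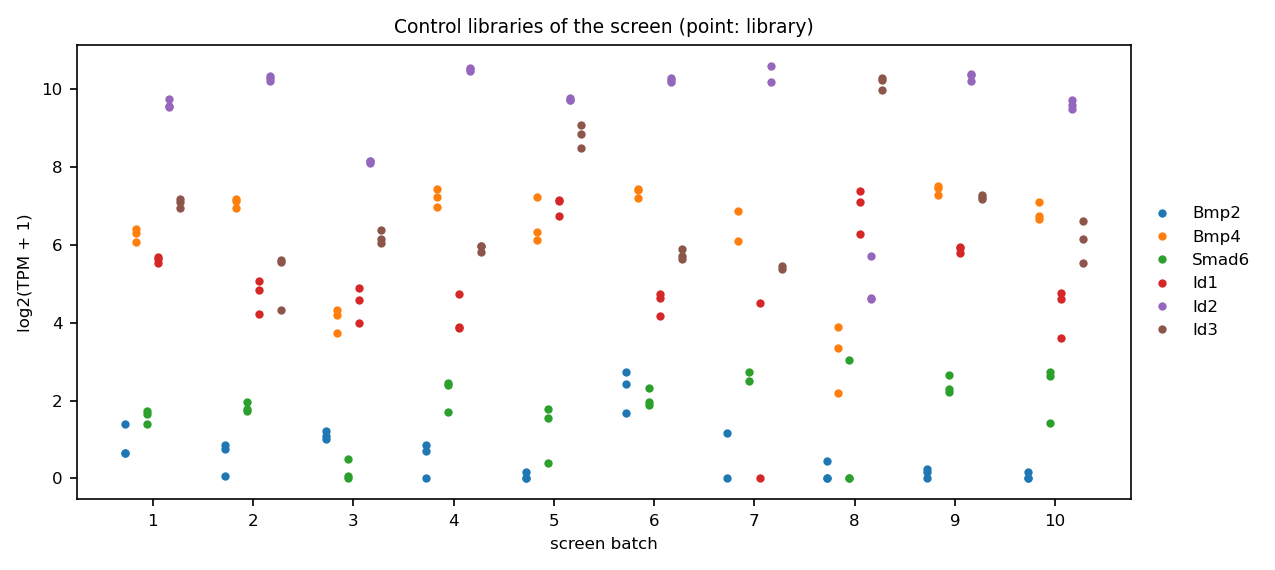
Level of each gene, as log2(TPM + 1), in the 29 control libraries of the screen, by batch; each point is a library. Id2 is near the top of the axis in most batches but low in batches 3 and 8, and Id3 is highest in batch 8, where Bmp4 is lowest.

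Control levels of Id2 and Id3 varied widely between batches of the screen. Mean Id2 was 32.8 ± 15.98 TPM in batch 8, 281 ± 7.17 in batch 3 and between 779.5 and 1455 in the others (SD, n = 3 in these 2 batches), a 44.4-fold range from lowest to highest. Id3 ran the other way at its ends, with 1149 ± 124 TPM in batch 8 and 37.9 ± 16.3 in batch 2. Bmp4 was at 8.90 ± 5.13 TPM in batch 8, 16.2 ± 3.43 in batch 3 and 171 ± 14.5 in batch 9. Id1 lay between 10.9 TPM (batch 7, n = 2) and 129 ± 19.4 TPM (batch 5). Neighbouring batches in the order of means overlapped in 8 of 9 pairs for Bmp4, 6 for Id1, 6 for Id2, 5 for Id3, 9 for Smad6 and 8 for Bmp2. Id2 was thus set apart at the low end, where batches 8, 3 and the rest did not overlap. Batches 3 and 8 also differed in markers, as given above. For batch 8, batch and stage title cannot be told apart. Smad6 spanned 0 to 7.31 TPM within batch 8 alone, wider than its range of batch means, 0.157 to 5.11 TPM.

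Id1 and Id3 rose with GSK-J4 at E5.0, in the libraries where Id2 fell. Id1 was at 98.6, 52.2 and 71.8 TPM in GSK-J4 libraries, against 16.5, 15.6 and 11.5 TPM in wild type (log2 difference 2.25, SE 0.28, limma adjusted p = 0.00104). Id3 was at 150.2, 188 and 137 TPM, against 55.1, 57.5 and 41.4 TPM (log2 difference 1.61, SE 0.19, limma adjusted p = 0.000693). Neither pair of groups overlapped. At E4.5 the groups overlapped for both genes, with Id3 at 409.6, 284 and 309.9 TPM against 304, 216 and 256 TPM in wild type (limma adjusted p = 0.534). The higher PrE marker sums of the treated E5.0 libraries stand beside these rises, and their part was not tested.

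In the DKO, Id1 and Id3 changed in opposite directions in PrE and in libraries labelled Epi. In PrE, Id3 rose to 113, 146 and 185 TPM, against 51.5, 53.6 and 51.7 TPM in wild type (log2 difference 1.46, SE 0.19, limma adjusted p = 0.000135). Id1 was at 59.1, 48 and 62.8 TPM in PrE of the DKO and 14.1, 15.2 and 33.8 TPM in wild type (log2 difference 1.29, SE 0.31, limma adjusted p = 0.00703). That call rested on the averaged wild-type pair: without it the difference was 0.72 (adjusted p = 0.12). In libraries labelled Epi, Id3 fell to 129, 120.4 and 132 TPM, against 293, 359.9 and 287 TPM in wild type (log2 difference -1.29, SE 0.17, limma adjusted p = 0.000321). Id1 there was at 40.7, 40.3 and 30.7 TPM against 69.2, 117 and 81 TPM (log2 difference -1.21, SE 0.27, limma adjusted p = 0.0138), a call lost without a filter, without wild-type replicate 2 or without DKO replicate 3 (adjusted p up to 0.0697). In these 4 comparisons the DKO and wild-type libraries did not overlap. In the screen, Id3 was higher in Suz12 knockout libraries labelled Epi, as given below. The interaction was 2.75 for Id3 (limma adjusted p = 3.46e-05) and 2.51 for Id1 (limma adjusted p = 0.00102).

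After the DKO the tissues were close in Id3, 148.1 ± 36.1 TPM in PrE and 127 ± 6.14 TPM in libraries labelled Epi (SD, n = 3 each). The wild-type libraries of the same table stood at 52.1 and 313 TPM. Genes at 1 TPM or more numbered 10720 to 11188 in PrE of the DKO against 9740 to 9871 in wild type. The median log2 difference over all tested genes was 0.36 in PrE and -0.11 in libraries labelled Epi.

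In the screen, Id3 rose in 8 knockouts and fell in 7, and Id1 rose in 3 and fell in 4. Of the Id3 rises, 6 came from the 7 knockouts of batch 2, whose controls held 46.4, 19.1 and 48.2 TPM, the lowest batch mean. The Suz12 knockout there had 340.4, 339 and 302 TPM, far above the controls (log2 difference 3.18, SE 0.29, limma adjusted p = 1.82e-16). It passed for 3 of 6 members, where 16.3% of genes passed, and its ExE marker sums were 17890 to 18394 TPM against 4322 to 4564 TPM. The part of those markers was not tested. Id1 was at 60.7, 56.9 and 58.8 TPM in the same Suz12 libraries and 32.7, 27.5 and 17.6 TPM in controls, apart but not called (limma adjusted p = 0.0787). Id3 and Id1 were both lower in DKO libraries labelled Epi, as given above. The screen and the DKO were fitted separately, and the difference between them was not tested.

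Smad2 carries Nodal and activin signals, the other arm of the TGF-beta family. Its knockout in batch 9 passed for 4 of 6 members, where 1.44% of genes passed. Id3 rose to 522, 475 and 518 TPM, against 154, 145 and 147.8 TPM in controls (log2 difference 1.75, SE 0.29, limma adjusted p = 1.78e-05). Id1 rose to 254, 237 and 298 TPM, against 60.1, 54.2 and 59.8 TPM (log2 difference 2.15, SE 0.48, limma adjusted p = 0.00341), a call lost with a pseudocount of 0.1 or without knockout replicate 2 or 3 (adjusted p up to 0.181). In the same libraries Bmp4 fell to 48.4, 44.1 and 37.5 TPM, against 176, 154 and 182 TPM (log2 difference -1.96, limma adjusted p = 0.00012). Id2 fell to 957, 854 and 855 TPM, against 1342, 1191 and 1319.6 TPM (log2 difference -0.53, limma adjusted p = 0.00769), a call lost without control replicate 1 or 3 or knockout replicate 2 or 3 (adjusted p up to 0.143). No pair of groups overlapped in these 4 genes. PrE marker sums were 850 to 880 TPM in the knockout and 749 to 820 TPM in controls, ExE sums 3076 to 3320 against 3256 to 3595 TPM, and epiblast sums 6998 to 7264 against 4019 to 4787 TPM. Elf5 was at 52.0 to 56.6 TPM against 107 to 135 TPM. The part of these markers was not tested.

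Falls of Id3 came in several batches. Kdm6b, another target of GSK-J4, was knocked out in batch 5, where Id3 was at 199.8, 189.6 and 154 TPM against 457, 357 and 539 TPM in controls (log2 difference -1.30, limma adjusted p = 0.000596). With GSK-J4 at E5.0 Id3 rose instead, and the difference between drug and knockout was not tested. Otx2, an epiblast transcription factor, gave 19.1, 18.8 and 26.6 TPM against 62.1, 55.7 and 61.3 TPM (log2 difference -1.45, limma adjusted p = 0.000534). The zinc finger factor Zfp281 gave 54.4, 47.5 and 54.8 TPM against 154, 145 and 147.8 TPM in batch 9 (log2 difference -1.50, limma adjusted p = 0.000534), without lower Zfp281 RNA. In these 3 knockouts no library reached the level of its controls. Among the falls of Id1, Ss18 (a subunit of BAF remodelling complexes) gave 8.16, 11.4 and 13.9 TPM against 49, 50.7 and 45 TPM in batch 1 (log2 difference -2.04, limma adjusted p = 0.00733), a call lost with a pseudocount of 0.1 or without knockout replicate 2 (adjusted p up to 0.164). ExE sums were 10381 to 10547 TPM in Ss18 libraries and 3325 to 3649 TPM in these controls, and their part was not tested. The rise of Id1 in Mcrs1 libraries was to 123, 78.5 and 102 TPM, against 32.7, 27.5 and 17.6 TPM in batch 2 controls (log2 difference 1.94, limma adjusted p = 0.00237). The Id1 rise called in Bend3 libraries of batch 7 had overlapping groups, with 1 of 2 controls at 0, and reversed to -0.58 without control replicate 2.

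Over the 40 knockouts the 6 members passed in 72 of 240 tests, 22 higher and 50 lower, which is 30%, where 6.42% of all tests passed. That share covers 17109 genes per knockout, while the median screen library held 10274.5 genes at 1 TPM or more. Many of the genes behind it were thus scarce, whereas Id2, Id3 and Bmp4 averaged 811, 150 and 76.75 TPM. The share among genes of like level was not computed. No knockout passed for all 6 members. Elf5 and Bend3 in batch 7 each passed for 5, as Zbtb17 did, where 15.1% and 21.3% of genes passed. By limma 5 knockouts passed for 0 members: Fos, Junb, Snai1, Sox4 and Wt1, where 0.836%, 0.316%, 0.836%, 0.772% and 0.362% of genes did, and where 2, 2, 3, 2 and 1 members had an unadjusted p under 0.05. Where Bmp4 and Id2 were both called, in 10 knockouts, they shared a direction in 9. Where Bmp4 and Id3 were both called, in 8, they were opposite in 7, and Id2 and Id3 were opposite in 8 of 11. Knockouts of 1 batch share controls in these counts.

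Across 146 screen libraries, after subtraction of each batch mean, log2 levels of Id1 and Id3 had a Pearson r of 0.40, Bmp4 and Id2 of 0.30, Bmp4 and Id3 of -0.29, and Id2 and Id3 of -0.13. The points share controls, depth and batch, so these values describe the table. Among 7353 genes with a mean of at least 5 TPM, the pattern most like that of Bmp4 belonged to Bcr (r = 0.65), Bcat1 and Fez2, both at 0.64. For Id2 it was Znhit3 and Hat1, both at 0.59, and Cpne3 at 0.58. For Id3 it was Mdk at 0.54, with Tceal8 and Lin28a at 0.52, and for Id1 it was Isyna1 at 0.51, Cdk4 at 0.475 and Nt5dc2 at 0.47. Bmp2 and Smad6 were below that level.

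Zbtb17 perturbation changed Id genes with dTAG, in the screen and in EBs, in different directions. With dTAG at E5.0, Id3 fell to 46.4, 45.0 and 31.8 TPM, against 335, 320.0 and 274 TPM in wild type (log2 difference -2.90, SE 0.16, limma adjusted p = 6.34e-06). Id1 fell to 12.7, 15.8 and 23.9 TPM, against 54.3, 92 and 79.4 TPM (SE 0.28, limma adjusted p = 0.00115), a 4.30-fold lower level. Id2 was at 387, 392 and 369 TPM against 308, 309.8 and 283 TPM (log2 difference 0.35, limma adjusted p = 0.0191), a call lost without wild-type replicate 57 or dTAG replicate 1 or 2 (adjusted p up to 0.0678). No pair of groups overlapped. PrE marker sums were 2569 to 2663 TPM with dTAG and 754 to 883 TPM in wild type, with 9 of 18 tested PrE markers and 10 of 16 ExE markers higher, and their part was not tested.

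In the screen, the Zbtb17 knockout of batch 6 passed for 5 of 6 members, all lower, where 17.8% of genes passed and 11.4% passed as lower. Id3 was at 8.97, 9.71 and 11.9 TPM against 58.0, 51.9 and 48.4 TPM in controls (log2 difference -2.27, SE 0.29, limma adjusted p = 8e-10). Id1 was at 16.6, 0 and 0 TPM against 24.0, 25.7 and 17.2 TPM (limma adjusted p = 1.49e-07). Id2 was at 509.5, 508 and 468 TPM against 1195, 1242 and 1167 TPM (log2 difference -1.28, SE 0.13, limma adjusted p = 1.1e-14). Groups did not overlap for any Id gene, but in a fit of these groups alone the Id1 call was lost (adjusted p = 0.154), as were those on Bmp2 and Smad6. These knockout libraries had fewer genes at 1 TPM or more, 7447 to 9225 against 9982 to 10434, and ExE sums of 12436 to 14630 TPM against 3766 to 4578 TPM, and the part of both was not tested. In the E4.5 table Id2 was at 289.8, 311 and 341 TPM in libraries titled knockout, against 22.3, 45 and 69.5 TPM in wild type (log2 difference 2.89, SE 0.52, limma adjusted p = 0.132). The groups were apart, in a table with 3986 to 4952 genes at 1 TPM or more where Id1 was listed at 0 throughout.

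**Figure D4:**
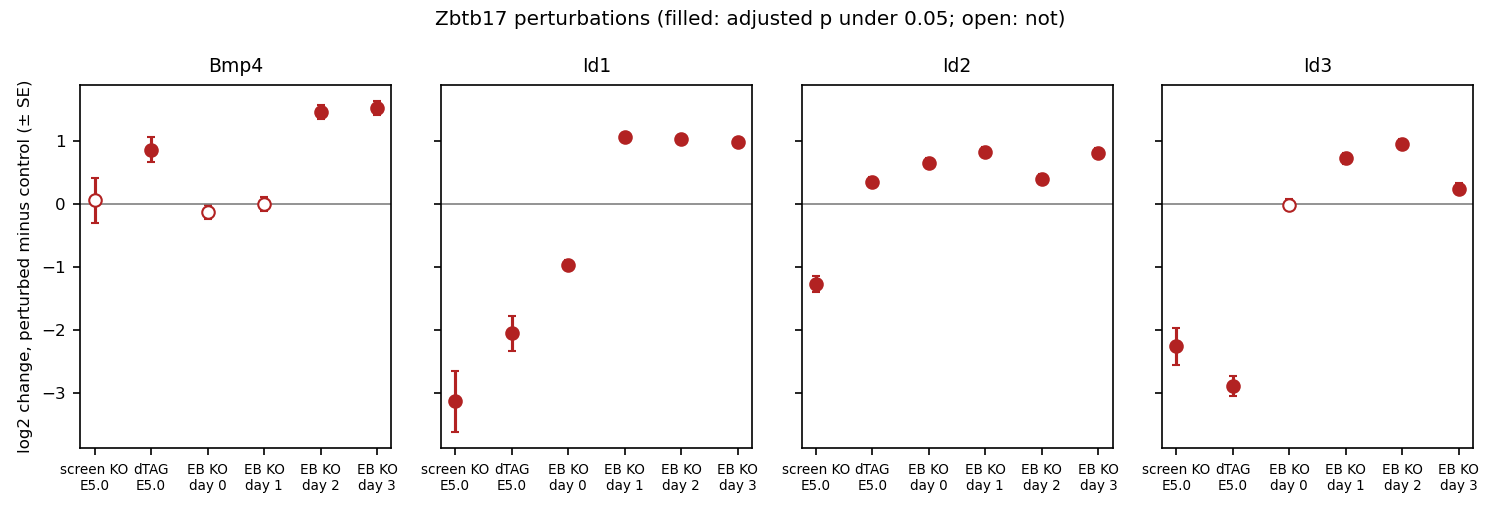
Log2 difference of Bmp4, Id1, Id2 and Id3, perturbed minus control, with SE, for Zbtb17 knockout in the screen, dTAG at E5.0 and Zbtb17 KO EBs on days 0 to 3; filled points have a limma adjusted p under 0.05. Id1 and Id3 lie below 0 in both embryo tables and above 0 in EBs from day 1 on.

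In EBs the 2 libraries of a group were nearly as alike as the duplicate PrE libraries (r = 0.9932 to 0.9967), so the tests here rest on a very small spread. Members passed in 2, 3, 5 and 4 of 6 cases on days 0 to 3, where 31.1%, 33.1%, 40.3% and 51.4% of genes did. On day 0 the libraries stood apart, with 5970 to 6983 genes at 1 TPM or more, and Id1 was at 1.77 and 1.47 TPM in KO EBs against 4.12 and 4.09 TPM in wild type (log2 difference -0.96, limma adjusted p = 5.57e-07). Id2 passed there as higher, at 19.7 and 17.1 TPM in KO EBs against 10.5 and 12.2 TPM in wild type, a call kept under every setting.

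Between day 0 and day 1 all 6 members rose in wild-type EBs, although the signs of Id2, Id3, Smad6 and Bmp2 flip under quantile normalization. In that step 93.3% of genes passed and the median difference of all genes was 2.465, so that Id1 (4.83), Id3 (3.11) and Bmp4 (2.93) lay above the median and Id2 (1.79), Smad6 (2.05) and Bmp2 (0.60) below it. Wild-type libraries of day 0 had 33.2% to 33.4% of TPM in their top 10 genes, against 6.91% to 6.94% on day 1. Pou5f1 was at 13.4 to 15.7 TPM on day 0 and 2336 to 2443 TPM on day 1. The part of this state of the day 0 libraries in the rises was not tested. From day 1 to day 2 in wild type, Bmp4 fell by 1.07, Id1 by 0.53 and Smad6 by 0.47, while Bmp2 rose by 0.53, where 53.3% of genes and 4 of 6 members passed. The Smad6 call was lost under 5 of 11 settings (adjusted p up to 0.172), among them without wild-type replicate 1 or without replicate 2 of each day, and that on Bmp2 under 2 of 10, among them without replicate 1 (adjusted p up to 0.194). From day 2 to day 3 Id2 fell by 1.14 and Id1 by 0.53, and Id3 and Smad6 rose by 0.51 and 0.62, where 40.5% of genes passed. The Id3 rise was lost under 1 of 11 settings, without wild-type replicate 2 (adjusted p = 0.0606), and that of Smad6 under 2 of 11, among them without wild-type replicate 1 (adjusted p up to 0.273). Wild-type EBs thus peaked early in Bmp4 and Id1.

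From day 1 on Id1 and Id3 were higher in KO EBs, as Id2 had been since day 0. The change of the KO effect from day 0 to day 1 passed for 2 of 6 members, Id1 and Id3, where 33.2% of genes passed. Id1 was at 311 and 297 TPM on day 1, against 142 and 146 TPM in wild type (log2 difference 1.07, SE 0.07, limma adjusted p = 5.01e-07). On day 2 it was at 204 and 207 TPM against 93.4 and 106 TPM (log2 difference 1.04, limma adjusted p = 2.48e-07), and on day 3 at 136 and 139 TPM against 67.5 and 69.5 TPM (log2 difference 0.99, limma adjusted p = 2.09e-07). The level of Id1 declined over these days in both genotypes, and the KO was at 2.10-, 2.06- and 2.00-fold of wild type. With group means of days 1 to 3 in the place of replicates, Id1 passed (log2 difference 1.03, limma adjusted p = 0.0358), where 0.187% of genes did. Bmp4 (adjusted p = 0.173), Id2 (0.102) and Id3 (0.12) did not. Days of 1 KO line are not independent replicates, so this p measures how steady the difference was over days. Line and genotype cannot be told apart here.

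Id3 was at 189 and 198 TPM in KO EBs on day 1, against 113 and 119.7 TPM in wild type (log2 difference 0.73, limma adjusted p = 7.42e-05). On day 2 it was at 231 and 235 TPM, against 119.9 and 119 TPM (log2 difference 0.95, limma adjusted p = 4.96e-06). By day 3 the gap had narrowed to 208 and 197 TPM against 159.6 and 182 TPM (log2 difference 0.25, limma adjusted p = 0.031), a call lost with a pseudocount of 0.1 or without replicate 1 of either genotype (adjusted p up to 0.318). The change of the effect, day 3 minus day 2, was -0.71, in a contrast where 16.4% of genes and 3 of 6 members passed. Id2 was at 70.9 and 78.3 TPM against 42.2 and 40.7 TPM on day 1, 61.5 and 61.4 against 46.4 and 46.4 TPM on day 2, and 36.1 and 37.8 against 19.8 and 21.5 TPM on day 3. KO and wild type did not overlap on any of these days.

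Bmp4 passed in KO EBs on days 2 and 3 and not on days 0 and 1. On day 1 it was at 10.1 and 8.74 TPM in KO EBs and 9.24 and 9.55 TPM in wild type, and the groups overlapped. On day 2 it was at 12 and 13.3 TPM against 3.47 and 4.50 TPM (log2 difference 1.46, SE 0.11, limma adjusted p = 9.7e-07), and on day 3 at 13.3 and 12.1 TPM against 3.89 and 3.58 TPM (log2 difference 1.53, SE 0.11, limma adjusted p = 3.64e-07). The change of the effect between days 1 and 2 was 1.46, in a contrast where 19.4% of genes and 2 of 6 members passed. Smad6 was at 4.20 and 5.54 TPM on day 2 against 2.36 and 3.14 TPM (log2 difference 0.64, limma adjusted p = 0.00598), a call lost under quantile normalization or without wild-type replicate 1 or KO replicate 2 (adjusted p up to 0.0948). Bmp2 passed on 0 of the 4 days by limma (1 at an unadjusted p under 0.05). ExE markers were higher in KO EBs, 14 of 16 tested on day 1, 11 on day 2 and 9 on day 3, although Elf5 was at 0 to 0.0563 TPM. Others of the list were lower in KO EBs on day 3. Eomes was at 9.06 to 9.90 TPM there against 85.2 to 88.1 TPM in wild type. Cdx2 was at 1.08 to 1.51 TPM against 2.40 to 2.74 TPM. The part of the ExE markers was not tested.

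**Figure D5:**
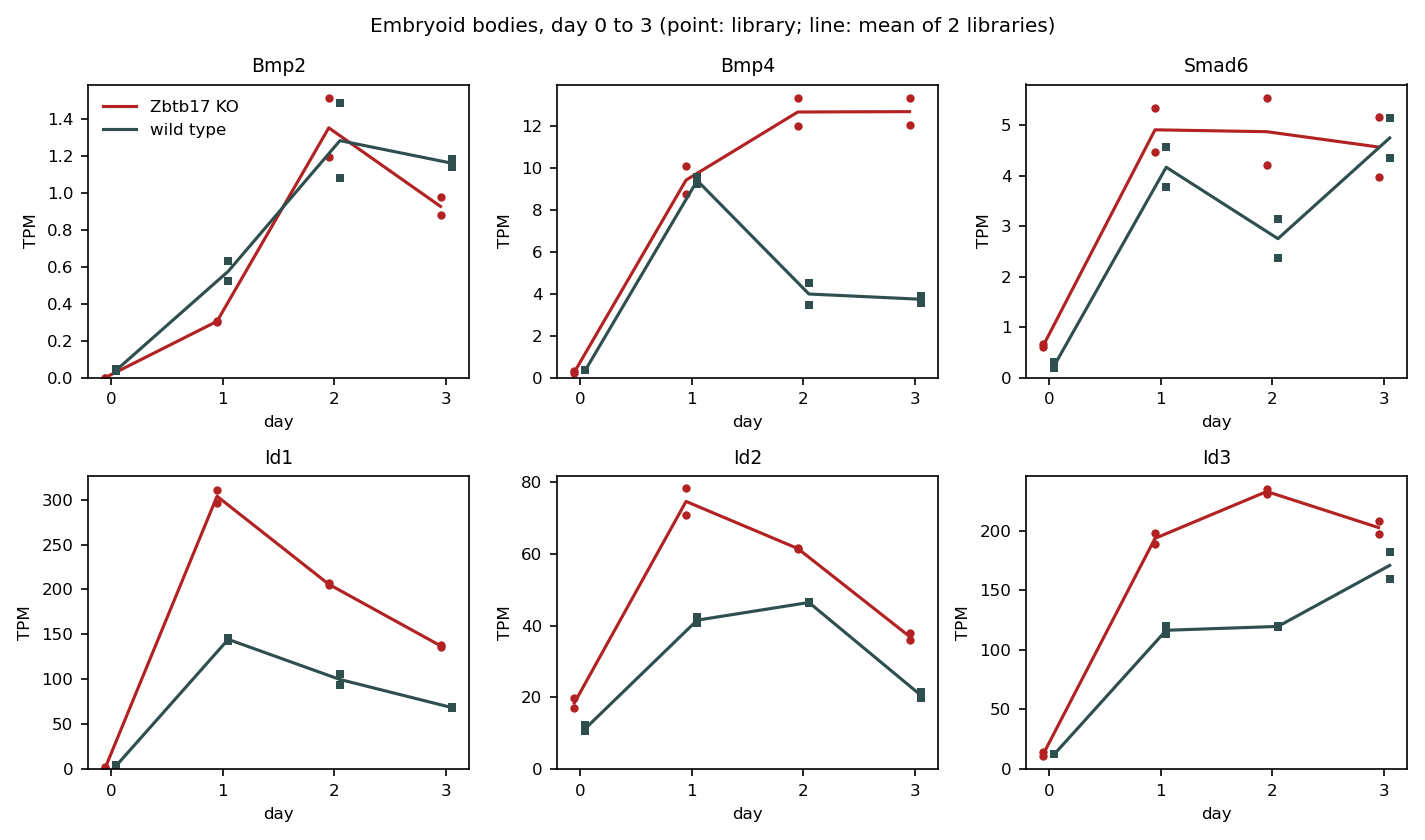
TPM of each gene in Zbtb17 KO (red) and wild-type (dark) embryoid bodies on days 0 to 3; points are libraries and lines join the means of 2 libraries. Id1 peaks on day 1 in both genotypes with the KO above wild type, and Bmp4 lines part from day 2 on.

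Other genes of the pathway were read from lists of 16 ligands, 16 receptors and Smads, 21 inhibitors and 16 target genes, with the 6 members left out. In EBs on day 2, 12 of 16 target genes were higher and 0 lower, with a list median of 0.70 in log2 beside -0.05 over all genes, of which 17.4% passed as higher and 22.9% as lower. On day 3 it was 11 higher and 2 lower, beside 20.5% and 31% of all genes. Hand1, a factor of extraembryonic and lateral mesoderm, was at 17.1 TPM in KO EBs on day 2 and 1.91 TPM in wild type (log2 difference 2.65). Of 14 receptors and Smads 2 were higher and 7 lower on day 3, where 20.5% of all genes passed as higher and 31% as lower. Of the inhibitors, Grem1, a secreted BMP antagonist, averaged 15 TPM in KO EBs and 2.06 TPM in wild type on day 3 (log2 difference 2.39), while Fst, which binds activin and BMPs, averaged 19.3 TPM in KO EBs and 104 TPM in wild type (log2 difference -2.36). Of the 3 E proteins, which Id proteins bind, 0 were higher and 2 lower on day 3.

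In embryos the counts were small. With GSK-J4 at E5.0, where 28.3% of genes passed, 0 of 10 tested receptors and Smads passed by limma (1 at an unadjusted p under 0.05), and of 4 ligands Bmp8a fell (log2 difference -1.67). Of 12 inhibitors 2 rose and 1 fell, with Cer1, an endodermal antagonist of BMP and Nodal, at 55.6 TPM on average in GSK-J4 libraries and listed at 0 in wild type. Of 9 target genes 2 rose, and Tbx3 averaged 23.5 TPM with GSK-J4 and 0.505 TPM in wild type (log2 difference 4.04). In DKO libraries labelled Epi, where 7.8% of genes passed, Msx2, of the target genes, was the 1 gene to pass, with a rise of 2.24. In PrE, where 22.9% passed, Hes1 and Fst rose by 1.89 and 2.30 and Skil fell by 1.95. With dTAG, where 11.7% of genes passed, Gata3 rose by 2.199, Hand1 by 0.87 and Gdf3 by 0.73, and Cer1 fell by 1.62, the 4 pathway genes that passed there, named after their values were seen. Of the receptors and Smads 0 of 8 passed by limma (0 at an unadjusted p under 0.05).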

How the data were processed

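The authors deposited TPM tables of Smart-seq2 libraries. HISAT2 2.2.1, StringTie 2.2.1, Cufflinks and mm10 are named, without roles, per the submitters' processing notes. The EB table has no gene column, and its 25006 rows were read in the order shared by 3 other tables, where its levels correlated with theirs at r = 0.885, against at most 0.113 when shifted by up to 5 rows. Each table was fitted separately with limma 3.58.1 in R 4.3.3 (lmFit and eBayes with trend, on log2(TPM + 1)). A gene was tested if the number of libraries holding 1 TPM of it reached the size of the table's smallest group. The EB and Suz12 Eed days or tissues shared a fit, as did screen batches, each knockout against the controls of its batch. The fits were tested on simulated data. Near-identical libraries (2 PrE controls, 3 Aurkb) were averaged. Benjamini-Hochberg adjustment ran within each comparison at 0.05. Members, gene lists and named genes were chosen with earlier results of these data known. Pathway genes were named from up to 4 per list that passed with the smallest adjusted p, and like genes were the 3 with the highest r. Knockouts described singly were chosen after their values were seen. Alternatives covered the pseudocount, filter, normalization, replicate block and left-out libraries.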

Additional observations from a re-analysis of the deposited data

Results flagged for a closer look

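Effects of the Suz12 Eed double knockout differed between tissues by the interaction test (PrE effect minus Epi effect, limma): by 2.75 for Id3, 2.51 for Id1, 1.42 for Bmp4 and 0.81 for Id2 in log2. The Bmp4 difference was lost under 11 of 19 settings.

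The Zbtb17 KO effect in EBs changed between days. From day 0 to day 1 it moved by 2.03 for Id1 and 0.74 for Id3. Day 0 libraries held fewer genes, and their part in this was not tested. From day 1 to day 2 the effect moved by 1.46 for Bmp4 and by -0.43 for Id2, and from day 2 to day 3 by 0.42 for Id2, -0.71 for Id3 and -0.69 for Smad6. The Id2 changes were each lost under 6 of 11 settings (adjusted p up to 0.153 and 0.176), that of Smad6 under 8 of 11 (up to 0.385) and that of Id3 from day 2 to day 3 under 1, without wild-type replicate 2 (0.0618). For Id2 and Smad6 the settings included leaving out either replicate of either genotype.

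The Bend3 effect of batch 8 minus that of batch 7 was 2.70 for Id2 and -1.37 for Id3. Batch and stage title go together here and cannot be told apart.

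Zbtb17 perturbations moved members in opposite directions in different tables, where the difference was not tested. For Id1 the log2 differences were -3.14 in the screen and -2.055 with dTAG, against 1.07, 1.04 and 0.99 in EBs on days 1 to 3. For Id3 they were -2.27 in the screen and -2.90 with dTAG, against 0.73, 0.95 and 0.25 in EBs. For Id2 they were -1.28 in the screen, against 2.89 at E4.5, 0.35 with dTAG and 0.83, 0.40 and 0.81 in EBs. For Smad6 they were -1.83 in the screen and 0.64 in EBs on day 2.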

How the results depend on the processing

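Of 132 calls on the members, 80 held under every alternative, among them 41 of the 72 screen calls. Under quantile normalization the members called numbered 5 in KO EBs on day 0 and 4 in the change of the EB effect from day 0 to 1, and the wild-type EB difference of day 1 over day 0 reversed for Id2 (-1.50), Bmp2 (-0.53), Smad6 (-0.033) and Id3 (-0.031). With a pseudocount of 0.1 there was 1 member called in the EB effect from day 1 to 2 and 1 in that from day 2 to 3, and there were 4 in the Bend3 contrast of batches. Without a filter 1 member was called in DKO libraries labelled Epi. Leaving out 1 library gave 1 to 3 members there and 2 to 4 with dTAG. In EBs and the screen, 1 replicate number was left out of all control or all knockout groups at once. That gave 1 member in the EB effect from day 1 to 2 and 0 to 1 in that from day 2 to 3. It gave 2 to 4 in wild-type EBs of day 2 over day 1, and for Id1 in Bend3 batch 7 a difference of -0.58 to 3.94.

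Equal replicate numbers did not clearly pair libraries: in no comparison did every pair of deviations correlate above 0.1. Correlations reached furthest in the Wt1 knockout (0.0372 to 0.245) and in DKO libraries labelled Epi (0.0915 to 0.219), and the check does not settle pairing there. In EBs, with 2 libraries a group, the deviations mirror each other and give a single value. With the number as a replicate block, 1 member was called in the EB effect from day 1 to 2 and 2 in wild-type EBs of day 2 over day 1, and screen calls numbered 26 higher and 54 lower. For dTAG alone no replicate block was fitted, because its groups shared no replicate numbers. A fit of only the compared groups lost 16 of 71 screen calls. The cause of these changes was not tested. With 2 or 3 libraries a group and unknown depth, low levels of Bmp2 and Smad6 are the least certain.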
